A study of Mus musculus with 22 samples.

Results

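Adenylate cyclases and the subunits of protein kinase A (PKA) were examined as 10 genes, Adcy1, Adcy2, Adcy3, Adcy8, Adcy9, Prkaca, Prkacb, Prkar1a, Prkar1b and Prkar2b, which are 10 of the 23361 genes in the expression matrix. They were chosen by name, with earlier results of these data known, and all 10 passed the filter on low values. The mRNA of microdissected hippocampal CA1 tissue was sequenced from 22 wild-type females of a Swiss Webster x DBA/C57BL6 F1 cross, with 1 library per mouse. Mice fed ad libitum (AL) and mice on calorie restriction (CR), a daily ration reduced in carbohydrates, were compared at 5 months of age (5 AL and 5 CR mice) and at 15 months of age (6 AL and 6 CR mice). The diets began in young adulthood, so the CR mice at 15 months had been restricted for longer than those at 5 months. The design asks whether these genes change between 5 and 15 months, and whether CR alters their level or that change.

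Adenylate cyclases make the second messenger cyclic AMP (cAMP) when receptors coupled to the stimulatory G protein Gs are activated, and each isoform listens to additional signals. PKA is held inactive as a complex of catalytic and regulatory subunits, and cAMP binding to the regulatory subunits frees the catalytic subunits, which phosphorylate channels, receptors and the transcription factor CREB. In CA1 neurons this route is known for its part in the late phase of long-term potentiation and in memory.

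Levels are in FPKM, the number of sequenced fragments scaled by transcript length and by library size, so that they can be compared between genes. Among the 5 cyclases examined, at 5 months in AL mice, Adcy1 was the most abundant, at 108 ± 9.72 FPKM (SD, n = 5), followed by Adcy2 at 53.8 ± 3.18, Adcy9 at 27.2 ± 3.61, Adcy3 at 13.6 ± 1.40 and Adcy8 at 6.36 ± 1.29. Of the other cyclases, Adcy5 (29.3 ± 2.98) and Adcy6 (11.3 ± 1.06) lay between these levels. No 2 neighbours in the order of the 5 overlapped in the 5 AL libraries. Among the PKA subunits of the same libraries, Prkar1a (217 ± 14.1 FPKM) and Prkar1b (210.1 ± 20.2) lay above Prkaca (97.3 ± 4.27) and Prkacb (82.3 ± 13.4), and Prkar2b (13.8 ± 3.13) lay far below. The libraries of Prkar1a and Prkar1b overlapped in that group, as did those of Prkaca and Prkacb.

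**Figure D1:**
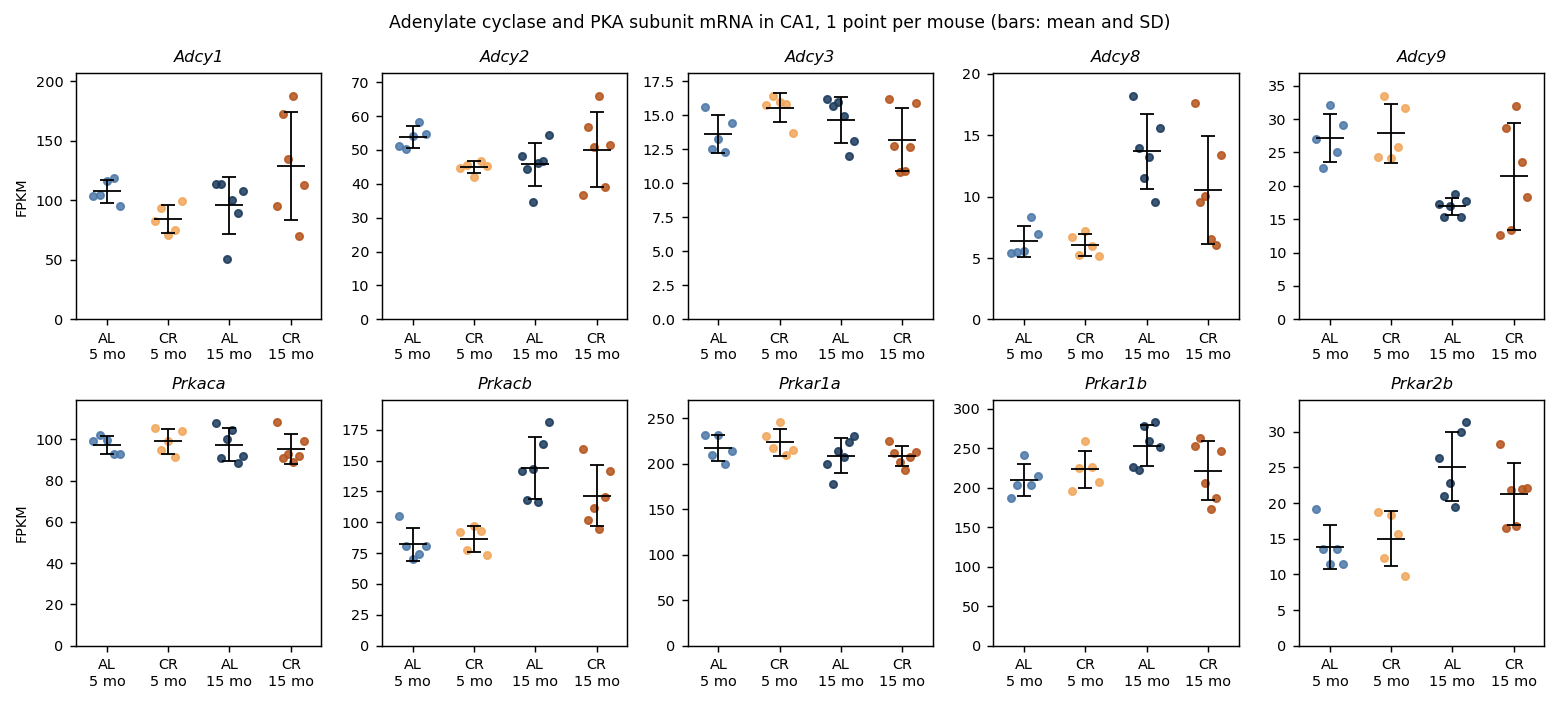
Level (FPKM, vertical axes from 0) of each of the 10 genes in each of the 22 mice, by group, with black bars for the mean and SD. In AL mice, Adcy8, Prkacb and Prkar2b stand higher at 15 than at 5 months with no overlap and Adcy9 stands lower. At 15 months Adcy8 and Adcy9 spread more widely in CR than in AL libraries (from 12.6 to 31.9 FPKM for Adcy9 in CR). Prkacb and Prkar2b do not, with SDs of 25.3 and 4.88 FPKM in AL and 24.7 and 4.32 in CR libraries.

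On GRCm38, the assembly that mm10 names, Adcy8 spans chr15:64697084-64922296 and Adcy9 chr16:4287529-4420498, both on the minus strand. Prkacb lies at chr3:146729574-146812990 and Prkar2b at chr12:31958476-32061296, also on the minus strand. Adcy3 at chr12:4133103-4213525 runs into Cenpo on the opposite strand, and the counting is not stated to use strand, so reads from the stretch shared by Adcy3 and Cenpo cannot be told apart. Adcy8 overlaps the opposite-strand gene Gm21798, which has no row in the matrix.

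RefSeq promoter windows on GRCm38.p6, 250 bases before to 50 after a transcript start, were found for 9 of the 10 genes (23 windows). Adcy8 had no entry. The windows were searched on both strands for the cAMP response element TGACGTCA, to which CREB binds, and for its short form TGACG, which the long form contains. The long form was found in 588 of all 32851 windows (1.79%) and the short form in 6837 (20.8%). Among the 10 genes, the long form was found only at Prkar1a, in 2 overlapping windows that share the same site. The short form occurred in at least 1 window of Adcy9, Prkaca, Prkacb, Prkar1a and Prkar1b. Counted by gene, 23.0% of all genes with a window held the short form in at least 1, and 2.03% the long form. A gene with more windows has more chances of a match, so these counts are a description. The stretches upstream of the starts of 3 genes that were called with age, ending where the GENCODE gene begins, are given to show what precedes those genes, and 30 bases around the Prkar1a site to show the long form. Each reads 5′ to 3′ on the strand of its gene, with the long form, or otherwise the short form, in capitals. They are Adcy9 at chr16:4420499-4420748, minus strand; Prkacb at chr3:146812991-146813196, minus strand; Prkar2b at chr12:32061297-32061527, minus strand; and Prkar1a at chr11:109650889-109650918, plus strand.
Adcy9: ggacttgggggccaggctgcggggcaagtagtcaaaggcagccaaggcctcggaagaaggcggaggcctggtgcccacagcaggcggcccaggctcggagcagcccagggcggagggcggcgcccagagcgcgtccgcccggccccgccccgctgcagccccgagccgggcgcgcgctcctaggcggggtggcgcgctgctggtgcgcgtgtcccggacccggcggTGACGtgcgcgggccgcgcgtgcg
Prkacb: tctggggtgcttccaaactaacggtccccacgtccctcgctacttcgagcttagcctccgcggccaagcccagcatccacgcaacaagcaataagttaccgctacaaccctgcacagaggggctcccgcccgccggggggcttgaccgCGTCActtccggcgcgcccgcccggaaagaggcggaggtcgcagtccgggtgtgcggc
Prkar2b: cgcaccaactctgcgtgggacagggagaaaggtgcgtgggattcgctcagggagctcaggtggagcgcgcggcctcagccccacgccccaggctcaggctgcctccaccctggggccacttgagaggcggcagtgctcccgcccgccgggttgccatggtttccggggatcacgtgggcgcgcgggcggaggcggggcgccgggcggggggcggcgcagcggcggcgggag
Prkar1a: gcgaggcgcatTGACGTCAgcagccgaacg

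In the Adcy9 stretch the short form begins at position -24 from the RefSeq start, and in Prkacb it begins, as its reverse complement CGTCA, at -102. The upstream Prkar2b stretch holds neither form. The windows of these 3 genes that start farthest upstream are rich in G and C, at 78.3% for Adcy9, 72.0% for Prkacb and 75.0% for Prkar2b, beside a median of 52.7% over all windows. A match of letters is a description and not a measured binding site.

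With age in AL mice, 4 of the 10 genes were called, where a gene is called at a Benjamini-Hochberg adjusted p under 0.05 in a limma fit over all 16978 genes tested. Adcy8, Prkacb and Prkar2b rose and Adcy9 fell, and all 4 had libraries at 15 months that did not overlap those at 5 months. Over all genes tested in this comparison, 20.6% were called (10.7% higher and 9.97% lower), and 14% did not overlap. With libraries shifted to a common median, 1441 genes were higher and 2286 lower in place of 1809 and 1693, and these 4 genes were called in the same directions. They were also called in each of the 22 fits that left out 1 library. With a marker score of tissue content as a covariate, a score that moved with age, 0 of the 10 genes were called, and with a dentate gyrus marker score 3 were, without Adcy9. These fits are described with the marker scores. The median log2 fold change was 0.049 over the 10 genes and -0.0018 over all genes tested.

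Adcy8 encodes a cyclase stimulated by calcium and calmodulin. Its level in the 5 AL mice at 5 months was 5.42, 5.49, 5.60, 8.38 and 6.92 FPKM, and in the 6 AL mice at 15 months it ran from 9.53 through a median of 13.6 to 18.2 FPKM. Every older AL mouse stood above every younger one. The log2 fold change was 1.08 (SE 0.22, adjusted p = 0.00241), the largest rise among the 10 genes. In CR mice the levels were 5.15 to 7.24 FPKM (median 5.95) at 5 months and 6.10 to 17.7 (median 9.82) at 15 months, so that the ages overlapped. Their log2 fold change with age was 0.71 (SE 0.22, adjusted p = 0.0871), which did not pass. Between diets at 15 months the log2 fold change of Adcy8, CR against AL, was -0.44 (SE 0.21, adjusted p = 0.295), which did not pass either.

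Adcy9 encodes the most divergent of the membrane cyclases, which is only weakly sensitive to forskolin. Levels in the AL mice at 5 months were 27.0, 22.7, 32.1, 25.1 and 29.1 FPKM, against a range of 15.4 to 18.7 (median 17.1) at 15 months. It was the only one of the 10 genes called lower with age in AL mice (log2 fold change -0.68, SE 0.19, adjusted p = 0.0164). In CR mice at 15 months Adcy9 ranged from 12.6 to 31.9 FPKM with a median of 20.9, a coefficient of variation of 37.3% beside 7.84% in AL mice of that age. CR libraries 1, 3 and 4 of that age, at 28.7, 31.9 and 23.5 FPKM, lay within the range of the AL mice at 5 months, while CR libraries 0 and 2, at 12.6 and 13.4, lay below every AL library. Between diets at that age Adcy9 did not pass, at 0.25 on the log2 scale (SE 0.18) with adjusted p = 0.487.

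Adcy1, also a cyclase activated by calcium and calmodulin and the most abundant of the family here, was not called in any comparison. In AL mice it stood at 103, 105, 116, 119 and 95.3 FPKM at 5 months, and at 51.0 to 114 (median 104) at 15 months. Library 2 of the older AL group was alone at 51.0 FPKM, with the next lowest at 89.4. In CR mice Adcy1 was 71.0 to 99.1 FPKM (median 82.5) at 5 months and 70.1 to 188 (median 124) at 15 months, the widest spread of the 4 groups. The age change was -0.21 (SE 0.22) in AL mice and 0.54 (SE 0.22) in CR mice on the log2 scale, with adjusted p = 0.524 and 0.189. The difference between those changes, the age by diet interaction, was 0.75 for Adcy1 (SE 0.31, unadjusted p = 0.0251, adjusted p = 0.635), which did not pass.

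Adcy2, a cyclase stimulated by G protein beta-gamma subunits, fell within a narrow band in young mice. AL mice at 5 months had 51.3, 50.3, 54.2, 58.4 and 54.7 FPKM and CR mice of that age 44.8, 45.6, 42.1, 46.7 and 45.4 FPKM. All 5 CR mice were below all 5 AL mice. Adcy2 was the only 1 of the 10 genes whose diets did not overlap at 5 months, which in either direction was true of 1.36% of all genes tested. The log2 fold change of -0.26 (SE 0.13) was not called, with adjusted p = 1 and unadjusted p = 0.0556. At 15 months Adcy2 overlapped between diets, at 45.8 ± 6.36 FPKM in AL and 50.1 ± 10.9 in CR mice (SD, n = 6 each).

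Adcy3, a cyclase best known from olfactory neurons and from primary cilia, stayed between 10.8 and 16.5 FPKM in all 22 libraries. Its largest differences were a log2 fold change of -0.25 (SE 0.11, adjusted p = 0.219) with age in CR mice and an interaction of -0.35 (SE 0.15, adjusted p = 0.639), neither of which passed.

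Among the catalytic subunits, Prkacb rose with age in AL mice and Prkaca did not pass. Prkacb, which encodes the beta catalytic subunit, was at 105, 81.1, 70.4, 74.4 and 80.6 FPKM in AL mice at 5 months and at 117 to 181 FPKM (median 142) at 15 months. Its log2 fold change of 0.80 (SE 0.14) had the smallest adjusted p of the 10 genes, 0.000866. CR mice had 73.4 to 97.3 FPKM (median 91.9) at 5 months and 94.6 to 159 (median 116) at 15 months, which overlapped by 1 library in the older group. The change with age in CR mice was 0.47 (SE 0.14, adjusted p = 0.0684). At 15 months CR differed from AL by -0.25 on the log2 scale (SE 0.13, adjusted p = 0.343).

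Prkaca, the alpha catalytic subunit, held to a narrow range of 88.5 to 108 FPKM over all 22 libraries. Its group means were 97.3 ± 4.27 (AL, 5 months), 98.9 ± 5.92 (CR, 5 months), 97.3 ± 7.98 (AL, 15 months) and 95.3 ± 7.33 (CR, 15 months). The log2 fold change with age in AL mice was -0.0042, with a 95% interval from -0.14 to 0.13. The ratio of Prkacb to Prkaca was below or near 1 in young mice, from 0.706 to 1.06 in AL and from 0.706 to 1.01 in CR, and above 1 in every older mouse, from 1.12 to 1.97 in AL and from 1.07 to 1.47 in CR. The ages did not overlap for this ratio on either diet, by a narrow margin in CR mice (1.01 against 1.07). Prkacb alone already did not overlap in AL mice. Non-overlap was not counted for ratios of other genes, so no background share stands beside it. Prkacb made up 45.6% ± 3.75 of the summed catalytic FPKM in AL mice at 5 months and 59.4% ± 5.26 at 15 months (SD, n = 5 and 6).

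**Figure D2:**
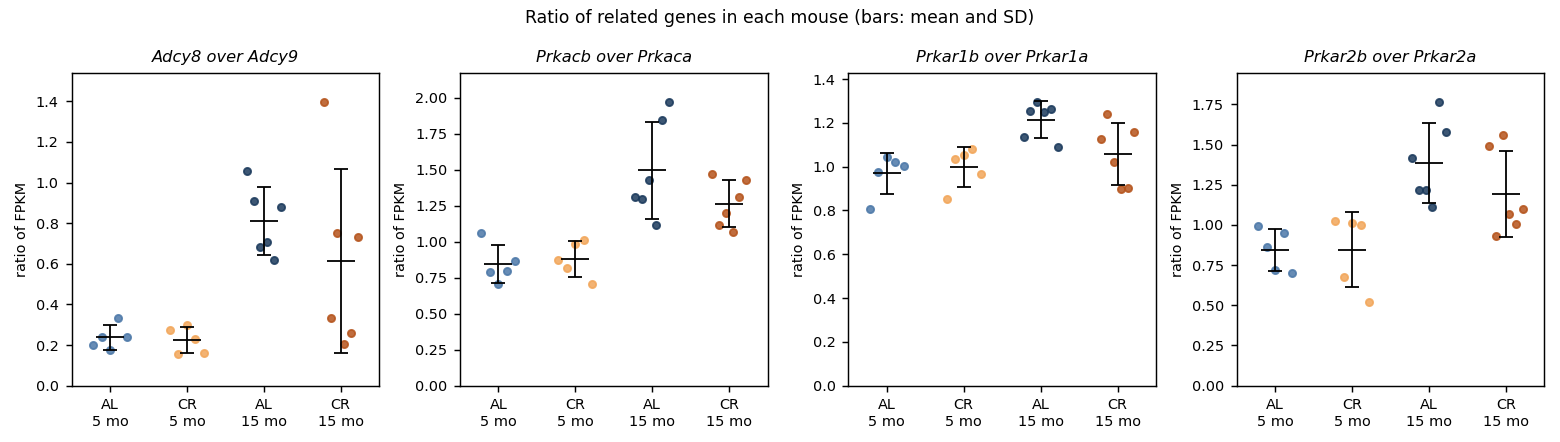
Ratio of the FPKM of 2 related genes in each mouse (vertical axes from 0), by group, with black bars for the mean and SD. Prkacb over Prkaca lies at or below 1.06 in all mice at 5 months and at or above 1.07 in all mice at 15 months, and Adcy8 over Adcy9 in CR mice at 15 months spreads from 0.205 to 1.40.

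Among the regulatory subunits, only Prkar2b was called. Prkar2b encodes the beta form of the type II subunit, the type that A-kinase anchoring proteins hold at membranes and dendrites. In AL mice it was at 19.1, 13.5, 11.4, 13.5 and 11.5 FPKM at 5 months and at 19.5 to 31.4 FPKM (median 24.5) at 15 months. The groups came within 1 FPKM of each other, since library 0 of the young AL group stood above its 4 group mates, yet they did not overlap. The log2 fold change was 0.86 (SE 0.18, adjusted p = 0.00289). In CR mice Prkar2b was 9.83 to 18.7 FPKM (median 15.7) at 5 months and 16.6 to 28.3 (mean 21.3) at 15 months, a change of 0.52 (SE 0.18, adjusted p = 0.124). Prkar2a, the alpha form, was at 16.3 ± 1.84 FPKM in young and 18.1 ± 1.13 in older AL mice, a log2 fold change of 0.16 (SE 0.09, adjusted p = 0.242). The ratio of Prkar2b to Prkar2a was 0.702 to 0.994 in young and 1.11 to 1.77 in older AL mice, and the ages overlapped in CR mice, at 0.521 to 1.02 and 0.932 to 1.56.

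The type I subunits are mostly soluble. Prkar1b, the form found mainly in brain, was at 187, 204, 241, 204 and 215 FPKM in AL mice at 5 months and at 222 to 283 FPKM (median 255) at 15 months, and the groups overlapped. Its log2 fold change of 0.27 (SE 0.11, adjusted p = 0.0847) did not pass, but it passed under quantile normalization (0.40, adjusted p = 0.0123) and in a fit of the AL groups alone (adjusted p = 0.0426). Prkar1a, the widely expressed form, went from 217 ± 14.1 to 209 ± 19.1 FPKM in AL mice, a log2 fold change of -0.059 with a 95% interval from -0.20 to 0.086. The ratio of Prkar1b to Prkar1a was 0.805 to 1.04 in young and 1.09 to 1.30 in older AL mice, while CR mice at 15 months ranged from 0.898 to 1.24. Summed over 4 regulatory and 2 catalytic genes, the regulatory to catalytic ratio was 2.56 ± 0.260 in young and 2.10 ± 0.154 in older AL mice, and 2.59 ± 0.173 and 2.19 ± 0.239 in young and older CR mice.

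The comparison of diets gave no limma call among the 10 genes at either age. The study's own Cuffdiff analysis of these mice listed Adcy8 as raised in normal aging and lowered by CR at 15 months. Why the methods differ was not tested. At 15 months 0 of 10 passed in limma, where 0.742% of all genes tested were called. None of the 10 had an unadjusted p under 0.05, which 2902 of the 16978 genes had. At 5 months 0 of 10 passed and 0 had an unadjusted p under 0.05, where 0% of all genes were called in limma and 789 had an unadjusted p under 0.05. No gene of the 10 separated the diets at 15 months without overlap, as 0.984% of all genes did. The 95% intervals at 15 months still allow sizeable differences, from -0.88 to 0.0035 for Adcy8 and from -0.044 to 0.83 for Adcy1 on the log2 scale. They are narrow for Prkaca (-0.16 to 0.097) and Prkar1a (-0.14 to 0.14).

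With age in CR mice 0 of the 10 genes passed in limma, where 3.36% of all genes tested were called, and 6 had an unadjusted p under 0.05 (Adcy1, Adcy3, Adcy8, Adcy9, Prkacb and Prkar2b), as did 3049 of the 16978 genes. Non-overlap between the ages was found for 0 of the 10 genes and 3.26% of all genes. The 2 age comparisons do not share libraries, and their difference is the interaction, for which 0 of the 10 genes and 0% of all genes were called and 3 of the 10, Adcy1, Adcy2 and Adcy3, had an unadjusted p under 0.05, as did 1301 of all genes. The 4 genes called with age in AL mice had interactions of -0.38 (SE 0.32) for Adcy8, 0.22 (SE 0.27) for Adcy9, -0.33 (SE 0.20) for Prkacb and -0.34 (SE 0.26) for Prkar2b, with adjusted p from 0.702 to 0.845. A difference in the age change between diets was therefore not shown for them. Without CR library 3 at 15 months, 2 of the 10 genes and 775 of the 16978 were called with age in CR mice.

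Compared with the young AL group, the older CR group differed in 1 of the 10 genes, where 3.12% of all genes were called and 1.38% were called higher. That gene was Prkacb, at 0.55 (SE 0.14, adjusted p = 0.0359). It was called in 5 of the 11 fits that left out a library of these groups, with adjusted p = 0.103 in a fit of those groups alone. Prkar2b was at 0.62 (SE 0.18, adjusted p = 0.0652), Adcy8 at 0.64 (SE 0.22, adjusted p = 0.117) and Adcy9 at -0.42 (SE 0.19, adjusted p = 0.228). Non-overlap was found for 0 of the 10 genes and 2.94% of all genes. This comparison shares its AL libraries with the age comparison in AL mice and its CR libraries with the age comparison in CR mice.

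**Figure D3:**
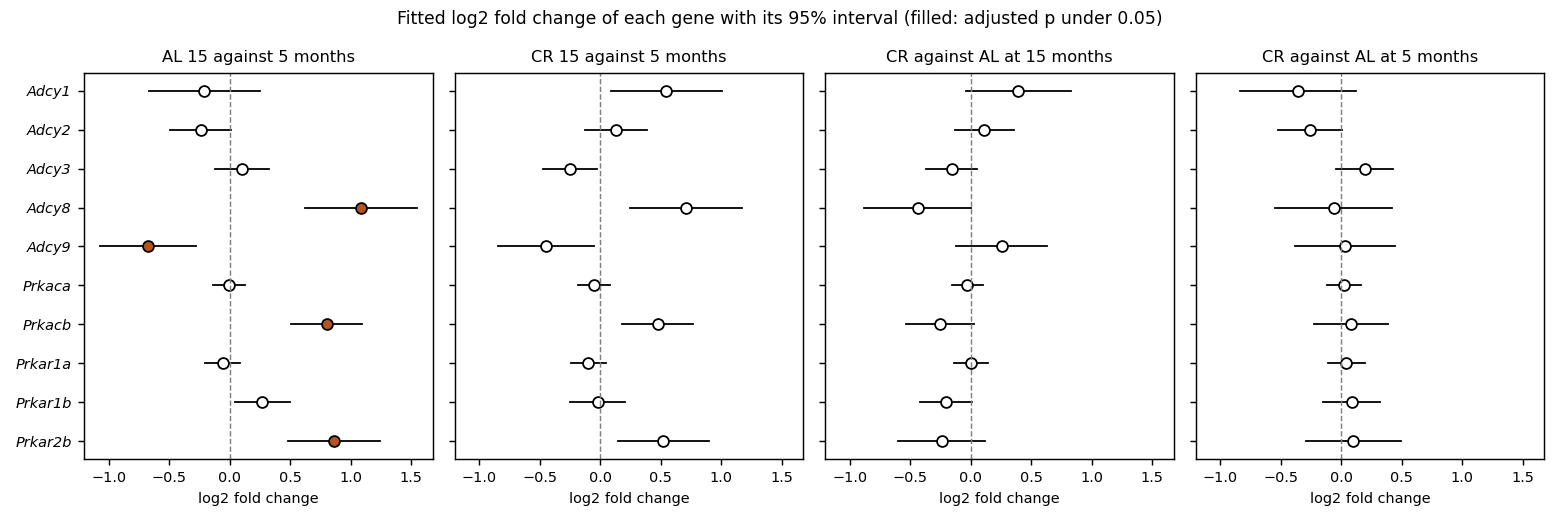
Fitted log2 fold change (horizontal axis) of each of the 10 genes in 4 comparisons, with lines for the 95% interval and filled points for an adjusted p under 0.05. Filled points appear only for AL 15 against 5 months: Adcy8 (1.08), Prkar2b (0.86), Prkacb (0.80) and Adcy9 (-0.68).

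Levels of marker genes used to gauge tissue content also moved with age, though not all alike. A region score was taken as the mean log2 level of 10 neocortex and subiculum markers minus that of 6 CA1 pyramidal neuron markers. It ran from -3.51 to -1.90 in AL mice at 5 months and from -1.74 to 0.219 at 15 months, a difference of 2.07 on the log2 scale (exact two-sided permutation test, p = 0.00433, adjusted p over 5 comparisons = 0.0216). Of the neocortex and subiculum list, 5 genes rose, led by Cux2 at 2.11, and 1 fell, and of the CA1 list 3 fell, led by Spink8 at -3.81 and Fibcd1 at -3.35. Spink8 was at 33.4 to 99.0 FPKM in young AL mice and at 1.22 to 12.9 in older ones, while the CA1 marker Wfs1 was at 33.7 to 88.2 and at 70.2 to 106 FPKM (log2 fold change 0.63, adjusted p = 0.156). No marker of either list was at 0 in all libraries of a group. Of 5 choroid plexus markers 3 fell, Folr1, Clic6 and Otx2. Drd1a, a striatum marker that is also a receptor coupled to Gs, rose by 1.51 (adjusted p = 0.000691). It was named after its value was seen, and 1 gene does not measure striatum content. The summed neocortex and subiculum level was 123 to 166 FPKM in young and 193 to 323 in older AL mice. In CR mice at 15 months the region score ran from -2.96 to -0.532, which was -0.885 from the AL mice of that age (exact p = 0.110). In bulk tissue, fewer cells of a type and less RNA per cell cannot be told apart.

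With the region score as a covariate, 0 of the 10 genes and 29 of all genes tested were called for age in AL mice. Prkacb was then at 0.24 (SE 0.12, adjusted p = 0.315), Prkar2b at 0.19 (SE 0.18, adjusted p = 0.616) and Adcy9 at -0.22 (SE 0.25, adjusted p = 0.688). Adcy8 was at 1.02 (SE 0.34, adjusted p = 0.128), beside 1.08 without the covariate. Leaving out AL libraries 4 and 5 at 15 months, the 2 with a region score above 0, all 4 genes were called: Adcy8 at 1.15, Adcy9 at -0.66, Prkacb at 0.67 and Prkar2b at 0.71 (adjusted p = 0.00635, 0.0480, 0.00699 and 0.0212). In that fit 2749 of the 16978 genes tested were called. The older AL libraries that were kept scored from -1.74 to -1.07, all above the young AL range of -3.51 to -1.90. That fit therefore cannot separate age from tissue content. Prkacb was highest, at 163 and 181 FPKM, in the 2 libraries left out. The part of tissue content in these changes was not tested.

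Dentate gyrus granule cell markers (5 genes) moved too. Their mean log2 score was 1.91 to 3.39 in young and -0.759 to 2.10 in older AL mice, with Dsp and Lct called lower, and -0.443 to 4.41 in CR mice at 15 months. CR libraries 1, 2 and 3 at 15 months, which held the highest Adcy1 levels of all 22 (173, 135 and 188 FPKM), had dentate scores of 2.54, 3.70 and 4.41, the highest of their group. Library 4 of that group had a score of 2.30 with the lowest Adcy1 of the group (70.1 FPKM), and the 3 young AL libraries with scores of 3.19 to 3.39 had Adcy1 levels of 103 to 119 FPKM. With this score as a covariate, an alternative added after the data were seen, 3 of the 10 genes and 1117 of the 16978 were called for age in AL mice. Adcy9 was lost (-0.52, adjusted p = 0.166), while Adcy8 (0.86, adjusted p = 0.0482), Prkacb (0.59, adjusted p = 0.0223) and Prkar2b (0.71, adjusted p = 0.0491) were called. Adcy1 was at 0.069 with age in AL mice and 0.20 between diets at 15 months in that fit, with adjusted p = 0.894 and 0.808.

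**Figure D4:**
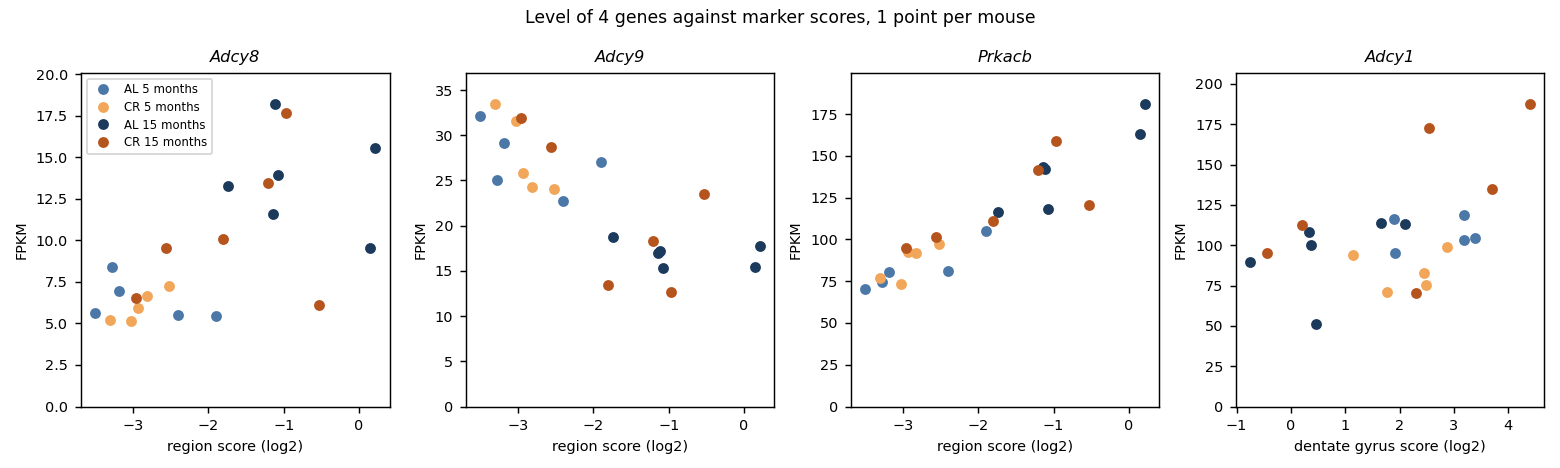
Level (FPKM) of Adcy8, Adcy9 and Prkacb against the region score, and of Adcy1 against the dentate gyrus score (both log2 scores), 1 point per mouse coloured by group. Prkacb runs from 70.4 to 181 FPKM and is highest in the 2 AL mice at 15 months with a region score above 0, and the 3 highest Adcy1 levels (135, 173 and 188 FPKM) belong to CR mice at 15 months.

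How the genes varied together was described by Pearson correlations of log2 levels over the 22 libraries, which share their ages, diets and tissue content and are given without a test. Prkacb and Prkar2b moved most closely, at r = 0.958, and at 0.891 with the group means removed. Within the 4 groups their r ran from 0.894 (AL, 5 months) to 0.958 (CR, 5 months). Adcy1 and Adcy2 followed at 0.813, and at 0.853 with group means removed. For Adcy8 and Adcy9 r was -0.807, and -0.571 with group means removed. Within groups r for this pair did not keep its sign, at -0.104 and 0.438 in AL mice at 5 and 15 months and at -0.933 and -0.736 in CR mice. The ratio of Adcy8 to Adcy9 was 0.238 ± 0.0605 in young and 0.809 ± 0.167 in older AL mice (SD, n = 5 and 6).

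Among the 13839 genes whose mean FPKM was 1 or more, those whose pattern was most like Prkacb over the 22 libraries were Rgs17 (r = 0.973), Prkar2b (0.958) and Dcbld2 (0.952). Prkar2b was most like Prkacb, Kitl (0.946) and Rgs17 (0.935). For Adcy9 they were Grin2a (0.954), Gpr63 (0.951) and Sema3e (0.938), and for Adcy8 Kcnj12 (0.933), Pip5kl1 (0.929) and Col9a2 (0.927). For the genes that were not called, r with the closest genes was lower. Group means were kept in these correlations, so shared differences between groups raise r. The contrast with the called genes is therefore not a result. Adcy1 was most like Dusp7 (0.852), Akt2 (0.840) and Zfp651 (0.814), Adcy2 like 2900092D14Rik (0.849), Adamts20 (0.843) and Kalrn (0.838), and Adcy3 like Magee1 (0.865), Abcg4 (0.851) and Spock2 (0.828). Prkar1b was most like Camk1 (0.871), Gabra3 (0.853) and Flot1 (0.850), Prkar1a like Dynll2 (0.846), Ndfip1 (0.802) and Rab11a (0.793), and Prkaca like Mfsd5 (0.763), Acot7 (0.738) and Scamp5 (0.721).

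Over all 10 cyclase genes, Adcy1 made up 42.8% ± 2.47 of the summed cyclase FPKM in AL mice at 5 months and 40.3% ± 7.19 at 15 months. Adcy8 went from 2.52% ± 0.432 to 5.80% ± 0.987 and Adcy9 from 10.8% ± 1.21 to 7.25% ± 0.931 (SD, n = 5 and 6), with no overlap between ages in either share. The levels of both genes already did not overlap, and non-overlap was not counted for shares of other genes. The sum itself overlapped, at 251 ± 14.8 FPKM in young and 235 ± 22.6 in older AL mice. Of the 5 other cyclases, only Adcy10, the soluble cyclase stimulated by bicarbonate, was called with age in AL mice (0.93, adjusted p = 0.00465), beside 20.6% of all genes. Its levels were 0.0608 to 0.199 FPKM in young and 0.148 to 0.442 in older mice. In CR mice Adcy10 was called with age as well (0.95, adjusted p = 0.0146), beside 3.36% of all genes. Its means at 5 months, 0.0978 FPKM in AL and 0.0700 in CR mice, lay below the filter of 0.1 FPKM. It passed that filter through the older groups, at 0.283 in AL and 0.229 in CR mice. The filter thus favoured a rise, and neither call counts as support for one.

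Upstream of the cyclases, 10 of 20 receptors coupled to Gs were called with age in AL mice, 7 higher and 3 lower, with a list median of 0.20, beside 20.6% of all genes called in that comparison. Crhr1, a receptor for corticotropin releasing hormone, rose by 1.14 (adjusted p = 0.000385). The dopamine receptor gene Drd5 fell by 3.27 on the log2 scale (adjusted p = 0.000501) and the melanocortin receptor gene Mc4r fell by 2.17 (adjusted p = 0.000637). Between diets at 15 months 0 of the 20 passed in limma and 8 had an unadjusted p under 0.05, beside 2902 of all 16978 genes, with Crhr1 at -0.68 (adjusted p = 0.0515). The study's Cuffdiff analysis listed Drd5 and Mc4r, among others, as raised by CR at that age and Crhr1, among others, as lowered. The study also measured the rise of Drd5 by NanoString. With age in CR mice, where 3.36% of all genes were called, 3 of the 20 passed, Drd1a at 1.46, Vipr1 at 0.49 and Mc4r at -1.32 (adjusted p = 0.00218, 0.0144 and 0.0443), and Drd1a is also one of the striatum markers. Of 7 G alpha genes 1 was called with age in AL mice, Gnal at 0.44 (adjusted p = 0.00358), which encodes a stimulatory subunit, and of 3 calmodulin genes 1, Calm3 at -0.34 (adjusted p = 0.0276).

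Downstream, cAMP is broken down by phosphodiesterases, and 5 of 16 of these genes were called with age in AL mice, 4 higher and 1 lower, beside 20.6% of all genes. They included Pde1b at 0.56, Pde4d at 0.57 and Pde11a at -1.45 (adjusted p = 0.00478, 0.0217 and 0.0284). In CR mice 2 of 16 were called with age, beside 3.36% of all genes: Pde1b at 0.65 and Pde11a at -1.79 (adjusted p = 0.00591 and 0.0307). Of the A-kinase anchoring proteins, which place PKA within the cell, 13 of 14 were tested and 5 called with age in AL mice, 2 higher and 3 lower, again beside 20.6% of all genes. Akap12 was at 1.04 and Akap14 at -1.37 (adjusted p = 0.00236 and 0.00425), and Akap13 was lower (adjusted p = 0.0112). In CR mice 2 of 13, beside 3.36% of all genes, were called with age, Akap14 (-1.47) and Akap2 (-0.43), both lower (adjusted p = 0.00897 and 0.0133).

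For the remaining lists, the calls with age in AL mice stand beside 20.6% of all genes called. Of 3 PKA inhibitor peptide genes 1 was called with age in AL mice, Pkib at 0.71 (adjusted p = 0.0222), and of 8 genes for CREB, its relatives and coactivators 1 was, Crebbp at 0.37 (adjusted p = 0.0493). Neither of the 2 other PKA genes nor the 2 cAMP-regulated exchange factors was called there, and the smallest p belonged to Prkar2a (0.16, adjusted p = 0.242) and Rapgef3 (0.29, adjusted p = 0.195). Between diets, 0 genes of these 10 lists were called in limma at 15 months and 0 at 5 months, beside 0.742% and 0% of all genes. The study's Cuffdiff analysis also listed Pde4d as lowered by CR at 15 months. For older CR mice compared with young AL mice, 3.12% of all genes were called. From these lists the calls were Akap14 and Akap2 lower (-1.45 and -0.43, adjusted p = 0.0128 and 0.0168) and Pde1b higher (0.58, adjusted p = 0.0169). Drd1a and Adcyap1r1 were also called higher (1.34 and 0.38, adjusted p = 0.00606 and 0.0362) and Mc4r lower (-1.38, adjusted p = 0.0392).

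**Figure D5:**
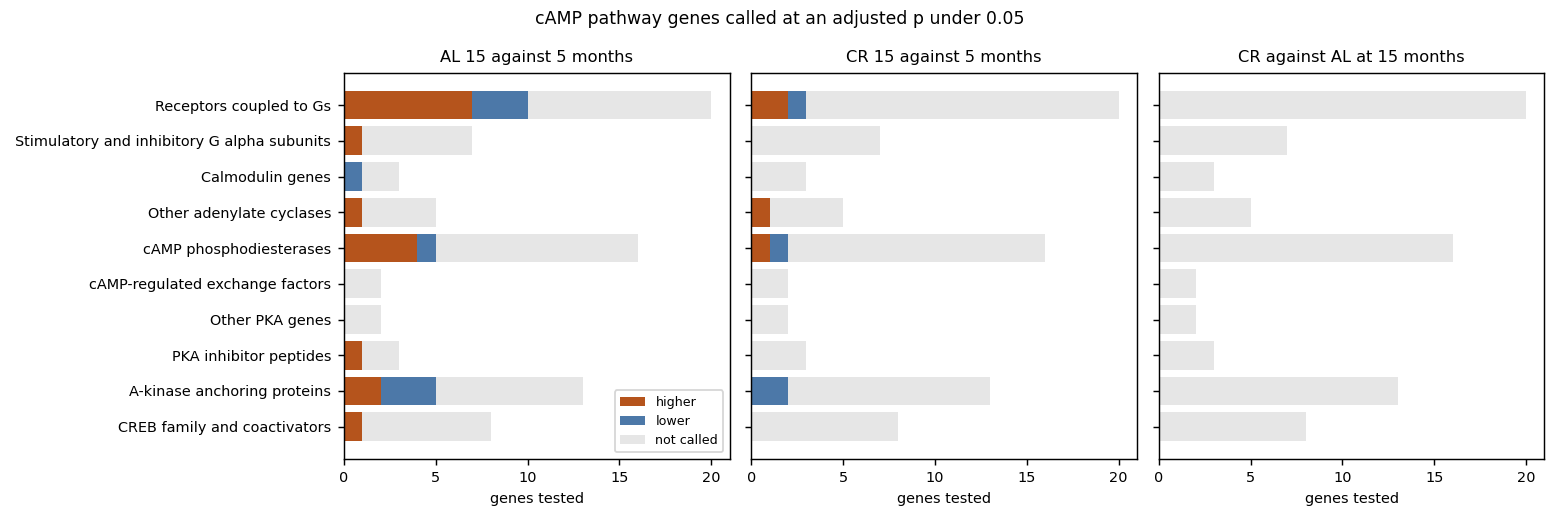
Number of genes tested in each of 10 lists around cAMP and PKA (horizontal axis), divided into genes called higher, called lower and not called, for 3 comparisons. In AL mice with age 10 of 20 receptor genes and 5 of 16 phosphodiesterase genes are called, beside 20.6% of all genes. Between diets at 15 months no gene of the 10 lists is called in limma, beside 0.742% of all genes.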

How the data were processed

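CA1 mRNA libraries of 22 mice, 1 per mouse, were analyzed from the deposited FPKM matrix. Per the study's methods and the submitters' processing notes, the authors used TopHat for alignment to mm10, Picard against PCR duplicates, and Cufflinks, with its bias and multi-read corrections, to obtain the FPKM. Tool versions are not given in the sources used here. The depth of each library is not given in the sources used here, so precision rests on the spread between mice. The striatum and oligodendrocyte marker lists as a whole are not reported here. Median FPKM per library was 2.51 to 3.10.

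From there, log2(FPKM + 0.1) was fitted over the 4 groups for the 16978 genes averaging 0.1 FPKM or more, with limma 3.58.1 (R 4.3.3, eBayes with an intensity trend). Tests were two-sided, with Benjamini-Hochberg adjustment over all genes tested and calls under 0.05. Fold changes are on that scale, which understates the change of low genes, and SE is the fit's standard error. Python 3.11.15 ran the remaining steps (pandas 2.3.3, numpy 2.4.6 and matplotlib 3.10.9). The exact permutation tests went through every relabeling of the libraries, with Benjamini-Hochberg adjustment by statsmodels. Coordinates are from GENCODE M21. The fit was tested on simulated data.

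The 10 genes, the pathway and marker lists and the rule for named genes were chosen with earlier results of these data known. The rule names all 10 genes, from each list at most 3 called genes with the smallest adjusted p per comparison (with no call, at most 1 gene, that with the smallest p), and the 3 genes most correlated with each of the 10. Cenpo, Gm21798 and single marker genes were named after their values were seen. Alternatives were other pseudocounts, filters and normalizations, no trend, separate fits, a replicate block, marker score covariates and left-out libraries.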

Additional observations from a re-analysis of the deposited data

Results flagged for a closer look

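Of 40 sets of libraries examined (10 genes in 4 groups), 2 held a library far from its group mates; chance alone gives about 1 in 20. Adcy3 in CR library 4 at 5 months was 13.7 FPKM, below the other 4 of its group, which were between 15.8 and 16.5. Prkar2b in AL library 0 at 5 months was 19.1 FPKM, above the other 4 of its group, which were between 11.4 and 13.5. That library also had the highest Prkacb level (105 FPKM) and the highest region score (-1.90) of its group. Without it, the log2 fold change of Prkar2b with age in AL mice was 0.98 and was called.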

How the results depend on the processing

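The depth of each library is not given in the sources used here, and marker scores of tissue content moved with age, which limits the age comparisons. Leaving out AL libraries 4 and 5 at 15 months together and using the dentate gyrus score as a covariate were chosen after seeing the data. Where a value moved, the cause was not tested.

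Among the 10 genes, the region score covariate left 0 calls for age in AL mice and 0 for older CR against young AL mice. The dentate gyrus score covariate gave 1 call for age in CR mice (Prkacb at 0.47, adjusted p = 0.0340). Older CR against young AL mice gave 0 calls in a fit of those groups alone and 2 with the replicate number as a block (Prkar2b at 0.58, adjusted p = 0.0499). With group means removed, r between same-numbered libraries ran from -0.139 to 0.163 (31 pairs, 2 above 0.1), and the numbers were not treated as pairs. Pairs with different numbers were not set beside them, so whether a number marks a shared batch was not tested. With 1 library left out, calls ran from 0 to 2 for age in CR mice and from 0 to 2 for older CR against young AL mice. In the latter, leaving out AL library 1, 2, 3 or 4 at 5 months, or CR library 0 or 5 at 15 months, gave 0, and leaving out AL library 0 or CR library 3 or 4 gave 2. For age in CR mice, 2 came without CR library 3 and 1 without CR library 4 at 15 months.

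Over all genes tested, age in AL mice gave 29 calls with the region score and 1117 with the dentate gyrus score (2382 to 3919 with 1 library left out). The diets at 15 months gave 77 calls under quantile normalization, 323 with the replicate block, 8 with the region score, 12 with the dentate gyrus score, 41 without AL libraries 4 and 5 and 0 in a separate fit (15 to 732 with 1 library left out). At 5 months, no trend and the dentate gyrus score gave 1 call each. Age in CR mice gave 304 calls at a mean FPKM of at least 1, 209 with the region score and 324 in a separate fit (331 to 775 with 1 library left out), and older CR against young AL mice gave 340, 173 and 218 (181 to 925). The interaction gave 2 calls without AL libraries 4 and 5.

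Signs that changed all belonged to genes not called. For age in AL mice, Adcy1 was at 0.34 with the region score and 0.069 with the dentate gyrus score, Adcy2 at 0.015 with the region score and Adcy3 at -0.040 with the dentate gyrus score. Prkaca was at 0.067 under quantile normalization, 0.048 without AL libraries 4 and 5 and from -0.035 to 0.022 with 1 library left out, and Prkar1a was at 0.053 under quantile normalization. For the diets at 15 months, Prkar1a was at -0.037 under quantile normalization and from -0.045 to 0.031 with 1 library left out, Prkaca from -0.067 to 0.0016, and Prkar2b at 0.047 with the region score. At 5 months, leaving out 1 library gave ranges for Adcy8 from -0.13 to 0.040, Adcy9 from -0.039 to 0.093 and Prkaca from -0.0013 to 0.049. For age in CR mice, Prkar1b was at 0.063 under quantile normalization and from -0.074 to 0.047 with 1 library left out. For older CR against young AL mice, Adcy2 was at 0.018 with the region score, and Prkaca at 0.0056 and Prkar1a at 0.015 under quantile normalization. The interaction of Prkar1a was 0.00097 with a common median, 0.017 with the region score, 0.059 with the dentate gyrus score and 0.024 without AL libraries 4 and 5.

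With 1 library left out, the region score difference ran from -0.229 to 0.174 between diets at 5 months, from 1.02 to 1.51 for age in CR mice and from 0.958 to 1.44 for older CR against young AL mice.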
